A study of Mus musculus and Homo sapiens with 22 samples.

Results

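The comparison of living cells with refolded RNA in the nucleoplasm of HEK293 cells, an established human line from embryonic kidney, rested on 3946 transcripts. They were the transcripts with at least 100 nucleotides scored in both files, of 19304 listed in either file and 5372 listed in both. The data came from icSHAPE, a chemical probing method: NAI-N3 attaches to the ribose of nucleotides that can move, so that an unpaired nucleotide tends to receive a high score (up to 1) and a paired or shielded one a low score (down to 0). In the in vivo sample, cells were given NAI-N3 for 5 min at 37 °C and then fractionated. In the in vitro sample, nucleoplasmic RNA was purified after fractionation, denatured at 95 °C for 1 min, cooled to 4 °C, folded for 5 min with HEPES and NaCl at 100 mM each and MgCl2 at 6 mM, and then modified for the same time. Scores were set against DMSO-treated RNA, of which the labels list 1 sample per compartment, so both files can share that control. RNA of both was depleted of rRNA, and the series also holds a chromatin and a cytoplasm pair made alike, mouse cells and a protein-binding experiment. Each group held 1 file, so no difference between samples has a replicate check, no test was run, and every interval covers the counting of transcripts alone.

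RNA in a cell does not fold on its own. Proteins that coat it, helicases that unwind it and the splicing and export machinery that handles it in the nucleoplasm all change which nucleotides stay flexible. RNA stripped of protein and refolded in a buffer is the usual reference for a profile taken in cells, although it keeps the chemical modifications it carried there. The nucleoplasm is the soluble part of the nucleus and is known to hold processed mRNAs before export together with many noncoding RNAs.

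The 2 files differed in breadth but not in the positions scored within a transcript. The in vivo file listed 5381 transcripts with 3369335 scored nucleotides, and the in vitro file 19295 transcripts with 6437699. In all 5372 transcripts listed in both, exactly the same positions carried a score in the 2 files, which held for 1482 of 3119 transcripts in the chromatin pair and 1322 of 3679 in the cytoplasm pair. Among transcripts with at least 100 nucleotides scored in both files, it held for all 3946 in nucleoplasm. In chromatin it held for 293 of 1266 such transcripts, and in cytoplasm for 685 of 2786. Members were 136 to 19275 nt long (median 865 nt) and had a median of 471 scored nucleotides, or 60.05% of their length. Their deposited abundance value had a median of 9.32 in vivo and 11.2 in vitro, and the median log2 ratio was -0.23. Of the other transcripts listed in both files, 1127 had 1 to 99 scored nucleotides and 299 had none. Transcripts just inside the limit (100 to 119 nucleotides, n = 125) had a median difference, in vivo minus in vitro, of -0.0220, and those just outside it (80 to 99 nucleotides, n = 178) one of -0.0131. The files name transcripts by Ensembl identifiers without gene names, and the name tables at hand are for mouse, so the fraction could not be checked against nuclear and cytoplasmic marker RNAs and no sequence is shown.

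The typical member was slightly less reactive in the cell by the deposited scores, but the direction changed with the scale. The mean score per transcript had a median of 0.211 in vivo and 0.224 in vitro. Of the 3946 members, 1482 (37.6%; exact binomial 95% interval 36.04 to 39.1) were higher in vivo. With each score replaced by its rank among all scored nucleotides of the file (0 to 1), the median mean rank was 0.509 in vivo and 0.492 in vitro, and 65.1% (63.6 to 66.6) were higher in vivo. The members held 98.3% of the scored nucleotides of the in vivo file and 51.5% of those of the in vitro file, so their in vivo ranks are held near the middle and their in vitro ranks also depend on the other transcripts of that file. With ranks taken among the members' shared nucleotides, the medians were 0.508 and 0.483, and 69.6% (68.2 to 71.05) were higher in vivo. Such ranks have the same mean over all nucleotides in both files, so they place members relative to one another and give no overall level. With nucleotides above 0 in both files, the medians were 0.333 and 0.327, and 51.4% (49.8 to 53.1) of 3516 members were higher in vivo, where the interval of the median difference (-0.000259 to 0.00418) spanned 0. The 3 treatments gave the same direction for 1447 members that were higher in vivo and 1143 that were lower, and for the remainder the direction changed with the treatment. The largest mixed group, of 763 members, was lower by score, higher by rank and lower above 0. Scores were also less even in vivo: the Gini index, which is 0 for equal scores and near 1 when a few nucleotides hold all of the score, had a median of 0.635 in vivo and 0.586 in vitro, and was higher in vivo for 80.9% (79.6 to 82.1), a direction that turned with ranks (23.8%) and above 0 (43.5%).

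**Figure D1:**
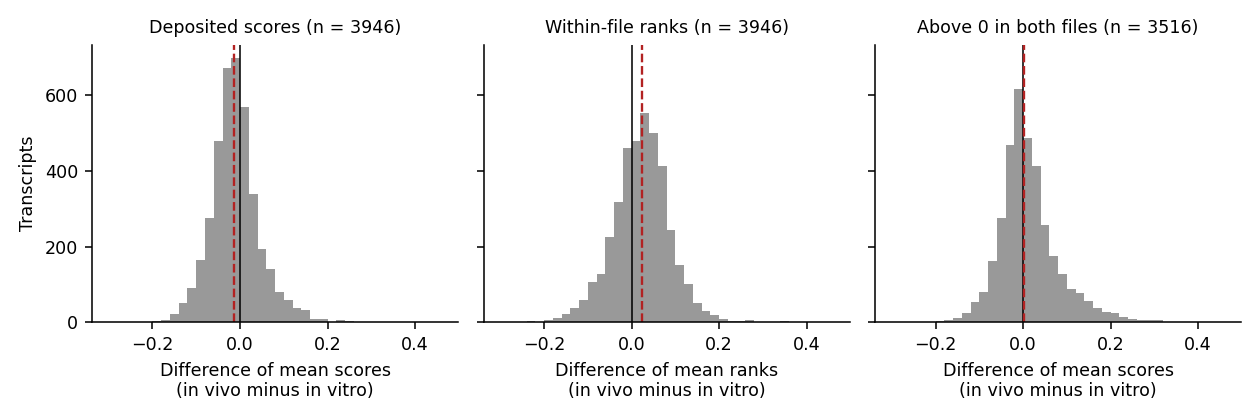
Histograms of each transcript's difference (in vivo minus in vitro), by deposited scores, by within-file ranks and by nucleotides above 0 in both files. The vertical axis counts transcripts, the solid line marks 0 and the dashed line the median, which lies at -0.0142, 0.0240 and 0.00204.

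Zeros were more frequent in vivo. A score of 0 was held by a median of 32.5% of a member's nucleotides in vivo and 20.05% in vitro. Over the 3313265 scored nucleotides of all members, 11.6% were 0 in both files, 22.4% were 0 in vivo alone, 7.13% were 0 in vitro alone and 58.9% were above 0 in both. Longer runs of zeros went with their higher frequency. The mean run was 2.03 nt in vivo and 1.67 nt in vitro, against 1.52 and 1.23 nt if zeros at these frequencies (34% and 18.8%) were placed independently. Runs of at least 5 zeros numbered 42331 in vivo and 13203 in vitro and held 27.5% and 14.5% of all zeros, and the longest runs were 59 and 37 nt.

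The most reactive nucleotides of the refolded RNA were often the most reactive in the cell. Nucleotides at the top score of 1 in vitro had a mean in vivo score of 0.686. Of them 39.4% were also at 1 in vivo, against 4.00% of all scored nucleotides of members. Those at 0 in vitro had a mean in vivo score of 0.0670, with 62.0% at 0 and 0.274% at 1. Between these classes the in vivo mean rose in steps: 0.104 for in vitro scores above 0 and up to 0.1, 0.173 up to 0.25, 0.276 up to 0.5 and 0.436 below 1. The in vivo mean was therefore above the in vitro mean in the 3 lowest classes, and below it in the 3 highest, where the in vitro means were 0.357, 0.686 and 1. Sorting nucleotides by one of 2 noisy measurements narrows the other by itself, and how much was not tested. A DMSO control used for both files would enter both scores, and its part in this overlap was not tested.

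Length divided the members under all 3 treatments. Members under 500 nt (n = 582) were nearly even, with medians of 0.191 in vivo and 0.196 in vitro and 46.2% (42.1 to 50.4) higher in vivo. Those of 500 to under 1000 nt (n = 1655) lay at 48.3% (45.9 to 50.8). From there the share fell to 33.2% (30.1 to 36.5) at 1000 to under 2000 nt (n = 858), 17.4% (14.5 to 20.7) at 2000 to under 4000 nt (n = 619) and 8.62% (5.35 to 13) at 4000 nt or more (n = 232). In the longest class the medians were 0.202 in vivo and 0.251 in vitro. By ranks the shares from shortest to longest were 75.1%, 77.6%, 63.6%, 41.4% and 20.3%, and above 0 they were 61.1%, 62.8%, 48.2%, 30.1% and 27.2%. With ranks among the members' shared nucleotides the shares were 79.2%, 81.3%, 69.2%, 45.9% and 26.7%. Members of 2000 nt or more thus stood lower in vivo on every scale, while the level around which the classes spread moved with the scale. The abundance value also differed between the classes, with median log2 ratios (in vivo over in vitro) of -0.31, -0.20, -0.15, -0.26 and -0.42. These rose and then fell with length, and the part of abundance in the trend was not tested.

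The drop in long transcripts came from their 3′ side. In living cells the score of a long RNA fell along its whole length, from well above the refolded level near the 5′ end to well below it near the 3′ end. Over the 851 members of 2000 nt or more, cut into 10 equal segments, the mean in vivo score was 0.322 in segment 1, 0.267 in segment 3, 0.211 in segment 5, 0.172 in segment 7 and 0.110 in segment 10. The in vitro mean of the same nucleotides was 0.237, 0.257, 0.256, 0.257 and 0.244. The in vivo profile was a slope and the in vitro profile nearly level, and they crossed between segments 3 and 4. Coverage was lowest at the 5′ end, with scores at 32.8% of segment 1, 59.4% of segment 3 and 54.02% of segment 10 positions.

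Both the zeros and the sizes of the scores carried the slope. From segment 1 to segment 10 of these members, zeros went from 25.7% to 52.2% of nucleotides in vivo and from 20.3% to 18% in vitro. The mean of the scores above 0 went from 0.433 to 0.2298 in vivo and stayed between 0.297 and 0.314 in vitro. Mean ranks went from 0.598 to 0.380 in vivo and lay at 0.501 and 0.517 in vitro, so the slope was present on each scale.

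**Figure D2:**
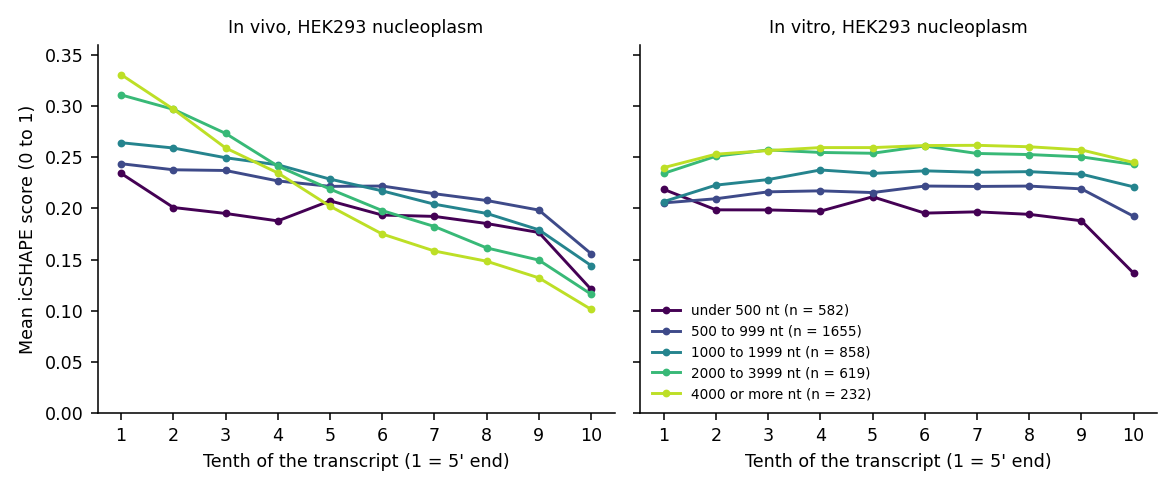
Mean icSHAPE score of pooled nucleotides in 10 equal segments from the 5′ to the 3′ end, for 5 length classes, in vivo on the left and in vitro on the right. The in vivo lines fall along the transcript and fall most in the longest class (0.331 to 0.102), while the in vitro line of that class runs from 0.240 to 0.245. In members under 500 nt both lines fall, from 0.234 to 0.121 in vivo and from 0.219 to 0.137 in vitro.

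The slope grew with length. The members were each divided at the midpoint, and the mean of the upstream part was compared with that of the downstream part where each held at least 50 scored nucleotides. In vivo the upstream part was higher for 65.3% (60.5 to 69.9) of members under 500 nt, 63.3% (60.6 to 65.9) at 500 to under 1000 nt, 75.2% (71.9 to 78.3) at 1000 to under 2000 nt, 88.8% (85.8 to 91.3) at 2000 to under 4000 nt and 97.5% (94.3 to 99.2) at 4000 nt or more. In vitro the shares were 57.4%, 47.3%, 44.7%, 48.4% and 58.4%. The median upstream minus downstream difference in vivo was 0.0280, 0.0250, 0.0492, 0.0855 and 0.107 from the shortest to the longest class, against values between -0.00502 and 0.0118 in vitro.

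Most long transcripts took part. Among 754 members of 2000 nt or more with enough nucleotides on both sides of the midpoint, the upstream minus downstream difference ran from -0.253 to 0.302 in vivo, with quartiles of 0.0459 and 0.146. In vitro the quartiles were -0.0211 and 0.0180. The difference passed 0.1 in 344 members in vivo and in 8 in vitro, and it was larger in vivo in 697 (92.4%). It was present at each level of abundance: the upstream part was higher in vivo for 85.3%, 93.6% and 94.4% of the least, middle and most abundant members of this length, with median abundance values in vivo of 6.04, 8.94 and 15.5, and in vitro for 51.0%, 52.6% and 49.6%.

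At equal distance from an end, long and short members differed. At 31 to 80 nt from the 3′ end, members of 2000 nt or more had a mean of 0.0801 in vivo and 0.227 in vitro, and 5.53% (3.79 to 7.75; n = 561) were higher in vivo. At the same distance, members under 1000 nt had 0.164 and 0.194, and 33.3% (31.1 to 35.6; n = 1689) were higher in vivo. At 57 to 106 nt from the 5′ end the long members had 0.333 in vivo and 0.225 in vitro, with 85.6% (80.3 to 89.9; n = 222) higher in vivo, and the short ones 0.218 and 0.202, with 57.6% (54.8 to 60.4; n = 1238). Long members still differed 431 to 830 nt from the 3′ end, with 0.153 in vivo and 0.253 in vitro. At 1631 to 3230 nt from it the means were 0.227 in vivo and 0.257 in vitro. Without the 100 nucleotides at the 5′ end and the 200 at the 3′ end, 71.4% of 2515 members still had the higher upstream part in vivo.

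Long transcripts had a similar slope in the cytoplasm pair. In the chromatin pair their slope was weaker, and no stronger than in shorter transcripts. In the cytoplasm the upstream part was higher in vivo for 81.4% (75.9 to 86.2) of transcripts of 2000 to under 4000 nt. At 4000 nt or more the share was 97.8% (88.5 to 99.9). In chromatin the shares of these classes were 58.3% (49.4 to 66.8) and 55.8% (47.4 to 64), intervals that include 50%. The shorter chromatin classes, from the shortest, had 62.4% (54.9 to 69.5), 65.1% (57.0 to 72.7) and 65.7% (55.4 to 74.9), intervals above 50%. From segment 1 to segment 10 the chromatin mean at 2000 to under 4000 nt went from 0.197 to 0.128 in vivo and from 0.209 to 0.189 in vitro. At 4000 nt or more it went from 0.194 to 0.189 in vivo and from 0.213 to 0.208 in vitro. For chromatin transcripts of 2000 nt or more together it went from 0.194 to 0.167 in vivo and from 0.212 to 0.201 in vitro. Scores covered 20.4% of their segment 1 and 18.6% of their segment 10 positions. Over the same 113 transcripts of 2000 nt or more, the upstream part was higher in vivo for 95.6% in nucleoplasm and 49.6% in chromatin, with median differences of 0.117 and -0.00156. Over the same 231 transcripts, it was higher for 90.5% in nucleoplasm and 85.3% in cytoplasm, with medians of 0.0909 and 0.0717. In both comparisons each pair kept its own scored nucleotides, so the transcripts were the same but the positions need not be. From segment 8 to segment 10 the in vivo mean went from 0.156 to 0.110 in the 851 long nucleoplasm transcripts and from 0.173 to 0.166 in the 320 of the cytoplasm pair, which are not all the same transcripts. Each compartment had 1 file per treatment, so these are differences between files, and compartment and library cannot be told apart.

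**Figure D3:**
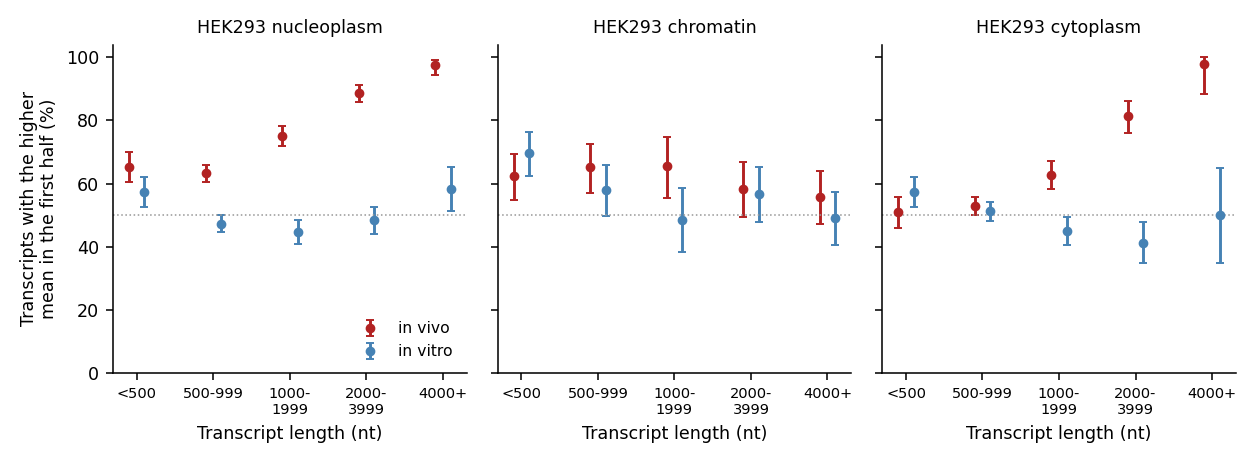
Percent of transcripts whose mean score was higher upstream than downstream of the midpoint, by transcript length, in the 3 HEK293 compartments, with exact binomial 95% intervals as bars and 50% dotted. In vivo values of nucleoplasm and cytoplasm climb to 97.5% and 97.8% in the longest class. Chromatin does not climb, with 62.4% in the shortest class and 55.8% in the longest.

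Local differences followed the same map. Members were cut into 25-nt windows, of which 121438 held at least 20 scored nucleotides, and a window was called when its means differed by more than 0.2. In vivo 2.27% of windows (2762) were higher and 7.52% (9129) were lower. With each transcript divided into 3 sections of equal length, 5.74% of windows were higher and 1.62% lower in the upstream section, 1.25% and 6.15% in the central section, and 0.712% and 13.4% in the downstream section. In members of 2000 nt or more, the downstream section reached 19.8% lower (4678 windows in 563 transcripts) against 0.326% higher.

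Closed stretches in the cell were concentrated downstream. Windows with a mean below 0.05 numbered 9398 in vivo, of which 66.2% lay in the downstream section, and 1917 in vitro, of which 30.7% did. A window that was closed in vivo (below 0.05) and open in vitro (0.2 or more) occurred 3673 times in 702 transcripts, with 73.7% in the downstream section. The opposite case, closed in vitro and open in vivo, occurred 64 times in 30 transcripts. These cut-offs were set on deposited scores, of which 34% were 0 in vivo and 18.8% in vitro. Windows were not compared by rank. Windows closed in both files numbered 1331, with 30.7%, 36.1% and 33.2% in the upstream, central and downstream sections, against 27.1%, 37.3% and 35.6% of all windows. Windows with a mean above 0.4 were about as frequent in vivo (8698) as in vitro (8929), but 56.02% of them lay in the upstream section in vivo and 26% in vitro.

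The order of high and low nucleotides was partly kept. Pearson's r across the scored nucleotides of a member had a median of 0.606, with quartiles of 0.523 and 0.692 and a range from 0.0659 to 0.994. It was highest in short members (0.668 under 500 nt) and lowest in the longest class (0.524). Subtracting the mean of each 100-nt block from both profiles, which takes out the slope, gave 0.672 and 0.543 for these classes, so the order of the classes was kept. The median r also followed abundance, from 0.553 in the least abundant of 5 equal groups of members to 0.710 in the most abundant one, where zeros in vivo were fewest (23.7% against 36.9%). More abundant members were shorter too, with a median of 668 nt against 1089 nt, and these 3 measures were not separated. A DMSO control used for both files would enter both profiles, and its part in r was not tested.

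Neighbouring nucleotides resembled each other less in the cell, and distant ones more. With a straight line along the transcript removed, the median autocorrelation at a distance of 1 nt was 0.363 in vivo and 0.519 in vitro. As deposited it was 0.387 and 0.522, and 5.73% (5.02 to 6.50) of members had the higher value in vivo. In the most abundant of the 5 groups, where fewer nucleotides were 0, the values were 0.485 and 0.602. The order turned with distance: at 6 nt the values with the line removed were 0.0611 in vivo and 0.0131 in vitro, and 78.8% (77.5 to 80.1) of members were higher in vivo as deposited. From 9 to 27 nt the in vivo curve carried small peaks at multiples of 3 nt. It had 0.0278 at 8 nt, 0.0385 at 9 nt and 0.0218 at 10 nt, and 0.0277 at 12 nt against 0.0185 at 11 nt. In vitro the same distances gave -0.00760, -0.00379 and -0.00890, and -0.00682 against -0.00868, so smaller peaks were present there too.

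**Figure D4:**
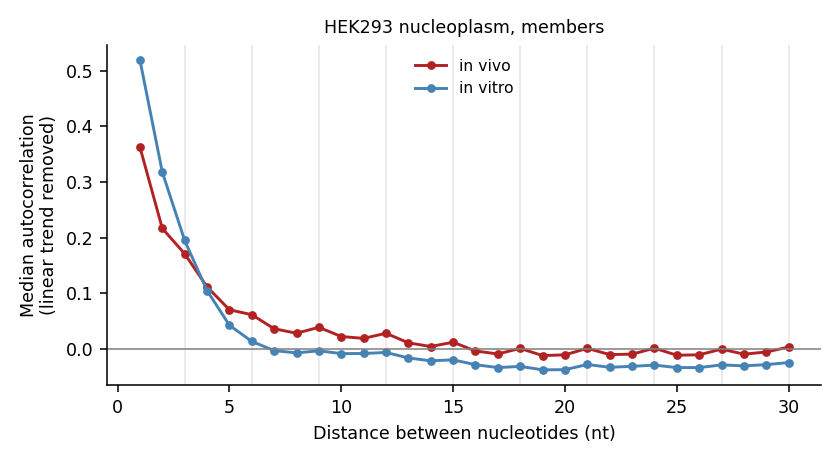
Median autocorrelation of the score over members after a linear trend was removed, against the distance between nucleotides, with grey lines at multiples of 3 nt. The in vivo curve starts lower (0.363 against 0.519 at 1 nt) and crosses the in vitro curve between 3 and 4 nt. From 9 to 27 nt it shows peaks at multiples of 3 nt, which are smaller in the in vitro curve.

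A repeat of 3 nt, the length of a codon, kept its frame between refolded and cellular RNA. It was measured in 1848 members with at least 500 scored nucleotides as the power at that period over the mean power at 24 neighbouring frequencies, and 324 members passed a ratio of 5 in both files. Each nucleotide was put in 1 of 3 frames counted from the transcript's start, and the frame with the highest in vitro mean was also highest in vivo in 321 of these 324 (99.1%; 97.3 to 99.8). In the 295 members that passed 5 in vivo alone, it was the same frame in 273 (92.5%; 88.9 to 95.3), and over all 1848 members in 77.4%. The frame was read from the in vitro file alone, but both scores can share 1 DMSO control, in which a pattern of 3 nt would enter both files in the same frame, and this was not tested. Among the 392 members above 5 in vitro, the median in vivo score was 0.263 in that frame and 0.209 in the others, a median gap of 0.0503, against a gap of 0.0385 in vitro, and the gap was larger in vivo in 80.9%. Over all 1848 members the gaps were 0.0255 in vivo and 0.0185 in vitro, and 62.5% were larger in vivo. In the 68 members above 5 in vitro alone the gaps were 0.0327 and 0.0400, and 33.8% were larger in vivo. Among the 392, the in vivo gap was also larger upstream (median 0.0584) than downstream (0.0409) of the midpoint. The in vitro gap was 0.0415 and 0.0326, so the median gap was smaller downstream in both files. The gap is a difference of scores, and its size relative to the level of the score was not tested. Reading frames are not given in the files, and which codon position the frame is was not determined.

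Single transcripts showed how different the departures were. By the naming rule, extremes were taken among the 1867 of 2858 members with at least 300 scored nucleotides whose 3 treatments gave the same sign. The highest differences were in ENST00000634956 (2163 nt), with an in vivo mean of 0.429 against 0.0657 in refolded RNA, taken from 394 nucleotides between positions 103 and 496, and in ENST00000468844 (1915 nt), with 0.339 and 0.0390, from 300 nucleotides between positions 1586 and 1885. Both had few zeros in vivo (18.02% and 14.3%) and fewer still in vitro (9.14% and 9.33%). Their in vitro scores were low rather than 0, with means of 0.0786 and 0.0466 over nucleotides above 0 in both files. Their in vivo levels were above the 95th percentile of members (0.277). In ENST00000468844 the 25-nt window at 1726 to 1750 had 0.699 in vivo and 0.0768 in vitro, and in ENST00000634956 the window at 426 to 450 had 0.730 and 0.125.

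The cytoplasm files separated the 2 sides of these differences. In cytoplasm ENST00000634956 had 0.391 in vivo and 0.350 in vitro, and ENST00000468844 had 0.320 and 0.325. The in vivo levels were near those of the nucleoplasm, and it was the nucleoplasm in vitro file that stood apart. The wider set showed this in part: 159 members were higher in vivo by more than 0.1, and 118 of them were also measured in cytoplasm. These 118 had medians of 0.277 in vivo and 0.136 in vitro in nucleoplasm, and 0.262 and 0.193 in cytoplasm, where the in vitro value was above the nucleoplasm one in 89 (75.4%; 64.8% among members within 0.1). The difference kept its sign in cytoplasm in 92 of the 118, and in 1409 of the 2039 members within 0.1. Over all 2222 transcripts measured in both pairs, 460 were higher in vivo in both and 510 in nucleoplasm alone. Part of such a return toward the middle follows from choosing members by their extremes, and its size was not tested.

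The lowest differences were in ENST00000396185 (3356 nt), with 0.0271 in vivo against 0.223 in vitro, from 406 nucleotides between positions 2676 and 3326, and ENST00000239367 (3260 nt), with 0.0671 and 0.261, from 1734 nucleotides. The first was scored near its 3′ end alone, with 67.0% zeros in vivo and 18% in vitro. The second showed the slope, with an in vivo mean of 0.162 upstream and 0.0410 downstream of the midpoint and in vitro means of 0.246 and 0.265. Neither passed the nucleotide limit in the chromatin or the cytoplasm pair. The 173 members lower in vivo by more than 0.1 had a median length of 2409 nt, against 694 nt for the 159 higher ones. Of the 173, 65 were measured in cytoplasm, with medians of 0.136 in vivo and 0.264 in vitro in nucleoplasm and 0.198 and 0.257 in cytoplasm. There the in vitro levels lay close together, and the in vivo level was higher in cytoplasm in 49 of the 65 (75.4%; 41.3% among members within 0.1). The difference kept its sign in cytoplasm in 61 of the 65. That is common in long transcripts: of 255 of 2000 nt or more measured in both pairs, 201 were lower in vivo in both and 5 in nucleoplasm alone. These members too were chosen by their extremes, which gives part of such a return by itself, and its size was not tested.

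The longest member departed in the refolded RNA instead. ENST00000429829 (19275 nt) had 19060 scored nucleotides, the most of any member, and nearly equal means of 0.234 in vivo and 0.244 in vitro. Its regions differed in opposite directions. In vitro its mean was 0.125 over positions 1 to 5000, 0.136 to 10000, 0.268 to 15000 and 0.484 over the rest, and in vivo it was 0.192, 0.281, 0.243 and 0.217. The in vitro profile rose toward the 3′ end, and its upstream minus downstream difference of -0.226 was the lowest of 3197 members. In the chromatin file the in vitro means of the same 4 stretches were 0.253, 0.296, 0.247 and 0.258, and in the cytoplasm file 0.289, 0.335, 0.270 and 0.225, so the rise was absent from the other 2 in vitro files. In vivo the highest stretch was positions 5001 to 10000 in each compartment, with 0.281 in nucleoplasm, 0.363 in chromatin and 0.255 in cytoplasm.

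**Figure D5:**
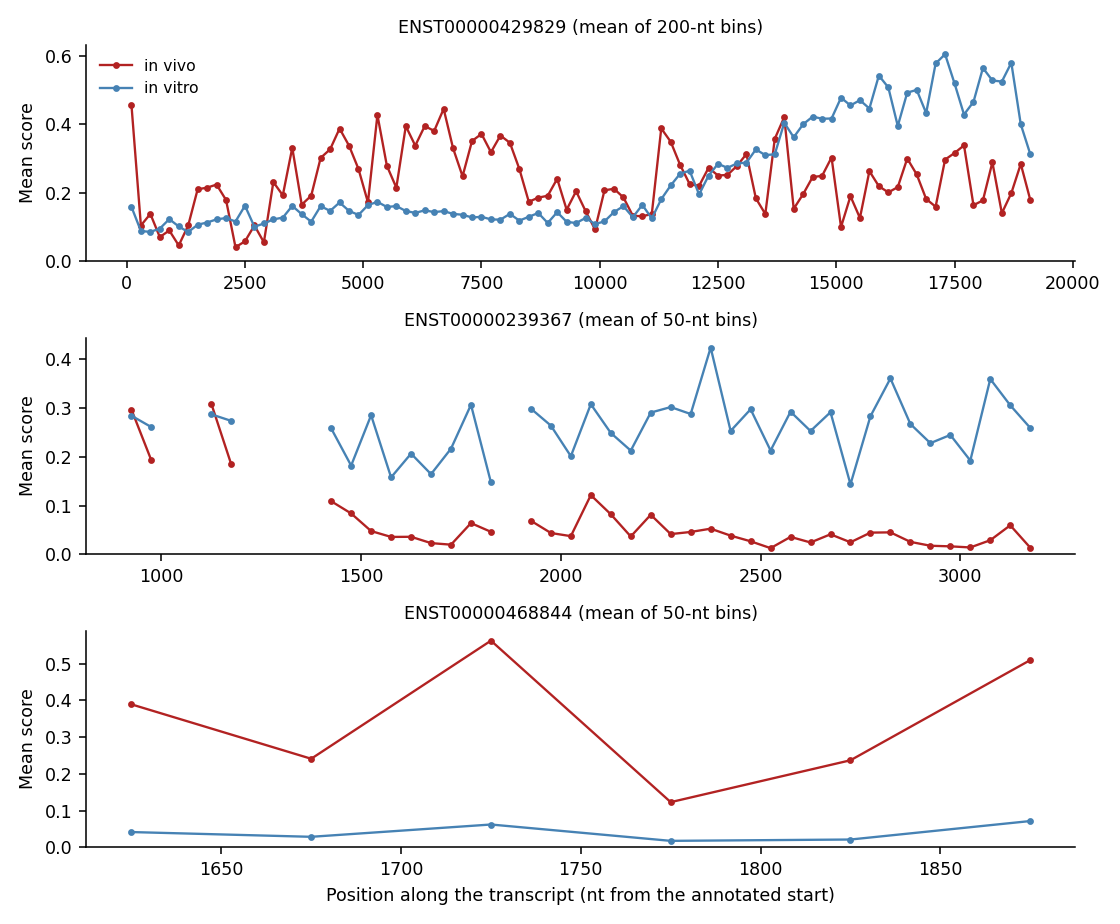
Mean score along 3 transcripts in bins of 200 nt (ENST00000429829) or 50 nt (ENST00000239367 and ENST00000468844), in vivo in red and in vitro in blue, with bins left out where under 40% of positions were scored. The in vitro line of ENST00000429829 climbs from 0.125 over positions 1 to 5000 to 0.484 over the last stretch, ENST00000239367 lies mostly lower in vivo, and ENST00000468844 lies higher in vivo.

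Likeness of profile had its own extremes. ENST00000416718 (547 nt, 491 scored nucleotides) had the highest correlation among members with at least 300 scored nucleotides, with r = 0.947, means of 0.154 in vivo and 0.133 in vitro and abundance values of 1277 and 1644. Its r between in vivo and in vitro was 0.945 in chromatin and 0.691 in cytoplasm. ENST00000552314 (595 nt, 387 nucleotides) had the lowest, with r = 0.0659, means of 0.162 and 0.2496, 59.7% zeros in vivo against 7.49% in vitro, and abundance values of 13.8 and 19.8. Its profiles crossed: the in vivo mean was 0.0230 upstream and 0.254 downstream of the midpoint, against 0.292 and 0.222 in vitro. The window at 276 to 300 had 0.0192 in vivo and 0.429 in vitro, and the window at 476 to 500 had 0.533 and 0.175. In cytoplasm, over 160 nucleotides, its r was 0.669.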

How the data were processed

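In the deposited icSHAPE files a line gives the transcript's identifier and length, a signal of unstated unit taken here as its abundance, and 1 score per nucleotide, which is a fraction from 0 to 1 or missing. The authors calculated the scores from DMSO and NAI-N3 samples, per the series' design text in the labels. Bowtie2, UMI-tools and hg38 are named in the submitters' processing notes. The scoring tool, its settings and any pooling of replicates were not named in the labels or headers. No score was present in the 6 nucleotides at the 5′ end or the 30 at the 3′ end. Protocols state about 200 M reads per replicate and 10 µg of RNA input per fraction. Read depth per file is unknown.

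Members, length classes, segments and the midpoint comparison were chosen with earlier results of these data known. Means, ranks (ties averaged), Gini index, Pearson's r, autocorrelation and spectral power were computed in Python 3.11.15 with numpy 2.4.6, pandas 2.3.3 and scipy 1.17.1, and the functions were tested on simulated data. Intervals are exact (Clopper-Pearson) at 95% and treat transcripts as independent, which isoforms are not. Named transcripts are the 2 highest and 2 lowest differences of means with the same sign under all 3 treatments, the member with the most scored nucleotides, and the highest and lowest r, with at least 300 scored nucleotides. The mouse and Lin28A files were not analysed here.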

Additional observations from a re-analysis of the deposited data

Results flagged for a closer look

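The rank comparison had opposite directions in 2 compartments over different sets of transcripts, but not over the transcripts they share. The median difference of mean ranks, in vivo minus in vitro, was 0.0240 in nucleoplasm (n = 3946; medians 0.509 and 0.492) and -0.0228 in chromatin (n = 1266; medians 0.469 and 0.505). Over the same 617 transcripts it was 0.0227 in nucleoplasm and 0.0135 in chromatin, with 58.5% and 57.7% higher in vivo. With ranks among the shared nucleotides of these transcripts in each pair, the compartments lay further apart. The median difference was then 0.0439 in nucleoplasm and 0.0104 in chromatin, with 67.3% and 54.9% higher in vivo. By deposited scores the same transcripts gave -0.0204 and -0.00137, with 35.8% and 49.8% higher in vivo. Each value comes from 1 file a side, and the difference between the compartments was not tested.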

How the results depend on the processing

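With ranks, the percent higher in vivo (37.6 as reported) turned to 65.1, the median difference (-0.0142) to 0.0240 and the percent with the higher Gini index, a measure of unevenness, in vivo (80.9) to 23.8. With ranks among the members' shared nucleotides these were 69.6, 0.0312 and 20.4. With nucleotides above 0 in both files these were 51.4, 0.00204 and 43.5. The median r (0.606) was 0.545 with ranks, 0.546 with shared ranks, 0.5502 above 0, 0.6003 without the transcript ends and 0.611 with block means removed. With at least 300 nucleotides the first 3 values were 34, -0.0187 and 84.3, and without the ends 39.7, -0.0109 and 78.1. Medians in place of means gave 31.9 and -0.019, and abundance within 1.5 times gave a difference of -0.0122. The percent with the higher upstream part in vivo (72.8) was 76.02 above 0 and 75.3 with at least 300 nucleotides, and in vitro (48.9) it was 46.1 with either kind of rank and 44.2 above 0. The cause was not tested, except that all nucleotides of each file changed nothing because the scored positions were the same. Odd and even positions and 1 transcript per family with a shared 60-nt pattern (3872 families) kept each of the 6 results within its interval, and odd and even positions agreed in direction for 87.6% of members. The midpoint comparison, its alternatives, the shared ranks and the block means were added after seeing the data. No paired analysis was possible because each group held 1 file. Depth is unknown, and the abundance value was the only guide to it.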
